A study of Mus musculus with 12 samples.

Results

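The matrix metalloproteinases (MMPs), the ADAMTS proteases and their tissue inhibitors (TIMPs) were followed in RNA-Seq of epididymal white adipose tissue (eWAT). The members were chosen by gene symbol: every numbered Mmp gene, every numbered Adamts gene and Timp1 to Timp4, which gave 46 of the 49315 genes in the count table (23 MMPs, 19 ADAMTS and 4 TIMPs). RNA came from 12 mice on a high-fat diet (HFD, 60% fat) for 12 weeks, with 1 library per mouse and 3 mice in each of 4 groups. Flox mice (Mir181a2b2 flox/flox, without Cre) served as controls for KO mice (Mir181a2b2-/-), in which the locus of miR-181a-2 and miR-181b-2 is deleted throughout the body. Mice of each genotype were injected intraperitoneally once a week with vehicle or with methotrexate (MTX, 1 mg/kg). All were male, with littermates matched for cage and age; the age itself is not given. The comparisons ask how the locus and the drug bear on obese fat.

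MMPs are zinc-dependent endopeptidases that cut collagens, gelatin, elastin, laminins and many signalling proteins, and most are secreted as zymogens or held at the cell surface. ADAMTS proteases are secreted enzymes with thrombospondin repeats, among them the proteases that trim procollagens and those that cut large proteoglycans such as versican and aggrecan. TIMPs bind the active site of MMPs, and Timp3, which stays bound to the matrix, also inhibits ADAM and ADAMTS proteases. In obese fat the enlarging adipocytes are embedded in a matrix that these enzymes remodel, and infiltrating macrophages make some of them.

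Libraries held 19495310 to 23976469 counted reads, so that 3 counts, the limit that a count of 0 allows, correspond to 0.125 to 0.154 CPM (the counts of a gene scaled to the size of the library). This limit covers counting error only. CPM values are scaled with TMM factors, and values are listed by replicate number, which is 1, 3 and 4 for flox vehicle, 1, 2 and 3 for KO vehicle, 1, 2 and 4 for flox MTX and 2, 3 and 4 for KO MTX. Adipocyte markers were abundant in every library (18017 to 71867 CPM summed over 10 genes). The flox vehicle libraries also carried RNA of the adjoining male tract: 18 epididymis markers summed to 5822, 15535 and 1985 CPM there and to 646 CPM in flox MTX replicate 1, against 1.92 to 29.0 CPM in the other 8. Most of these flox vehicle sums came from Crisp1 (3751, 9201 and 1164 CPM), Cuzd1 (1301, 3746 and 520) and Adam7 (598, 1610 and 244). The 18 markers did not all agree. Lcn8 and Gpx5 were at 0 in flox vehicle replicates 1 and 4. They stood at 1.61 and 4.74 CPM in KO vehicle replicate 1 and at 2.25 and 5.06 CPM in flox MTX replicate 4. Testis germ cell markers summed to 211 to 577 CPM in flox vehicle libraries and to at most 13.8 CPM elsewhere. Macrophage markers summed to 462 to 965 CPM in flox vehicle, 3331 to 5535 in KO vehicle and 4726 to 7697 in KO MTX. In flox MTX they were uneven, at 2390, 4218 and 746 CPM, and replicate 4 stood apart from its group. The deletion could not be checked, since the precursors at the locus had 2 counts in total over all libraries.

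Of the 46 members, 40 passed the filter on low counts (18 MMPs, 18 ADAMTS and all 4 TIMPs). The other 6 were at or near the limit. Mmp16 and Mmp24, both membrane-type MMPs, had 74 and 51 counts over the 12 libraries. Mmp21 had 53 counts, and Adamts13, the protease of von Willebrand factor made mainly in liver, had 37. Mmp10, the second stromelysin, had 44 counts, of which 21 were in KO vehicle and 3 in flox vehicle libraries. Mmp20, the enamel protease, had 20 counts, of which 19 were in flox vehicle libraries.

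The level of each gene per kilobase of exon allows members to be set side by side. By this measure Timp2, a secreted inhibitor that also helps to activate the Mmp2 zymogen, was the highest member in all 4 groups, at a mean of 58.7 CPM per kb in flox vehicle, 174 in KO vehicle, 122 in flox MTX and 206 in KO MTX. Below it the order differed between groups. In flox vehicle it continued with Adamts5 (37.3 CPM per kb), Mmp7 (33.7) and Timp4 (29.1). In KO vehicle the next were Mmp12 (95.9), Timp1 (73.6) and Mmp2 (52.9), and in KO MTX the same genes followed in the same order, at 117, 76.9 and 58.9. In flox MTX they were Adamts5 (56.8), Timp4 (34.8) and Mmp12 (29.1), and the range of Mmp12 over the 3 mice, 2.17 to 68.7, spanned that of its neighbours. The first rank of Timp2 rests on the division by length. In mean CPM, Adamts5 was above Timp2 in flox vehicle (403 against 229) and flox MTX (612 against 476). Mmp12 was above it in KO vehicle (694 against 679) and KO MTX (849 against 803).

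Summed over all 46 members, the level was 282 ± 59.7 CPM per kb in flox vehicle (SD, n = 3), 633 ± 130 in KO vehicle, 445 ± 134 in flox MTX and 702 ± 167 in KO MTX. The MMP sum was 107 ± 30.5 CPM per kb in flox and 269 ± 78.9 in KO vehicle mice, and the TIMP sum was 101 ± 20.3 and 275 ± 55.4. The ADAMTS sum lay between 52.8 and 105 in flox vehicle and between 84.8 and 92.3 in KO vehicle, so these ranges overlapped. Inhibitors held 36.0% ± 2.35 of the summed level in flox vehicle, 43.4% ± 0.180 in KO vehicle, 42.9% ± 2.73 in flox MTX and 43.6% ± 3.07 in KO MTX. Without division by gene length these shares were 31.6%, 30.9%, 31.5% and 30.9%, so the lower share in flox vehicle rests on the length scaling. Transcript levels do not give enzyme activity, which was not measured here.

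**Figure D1:**
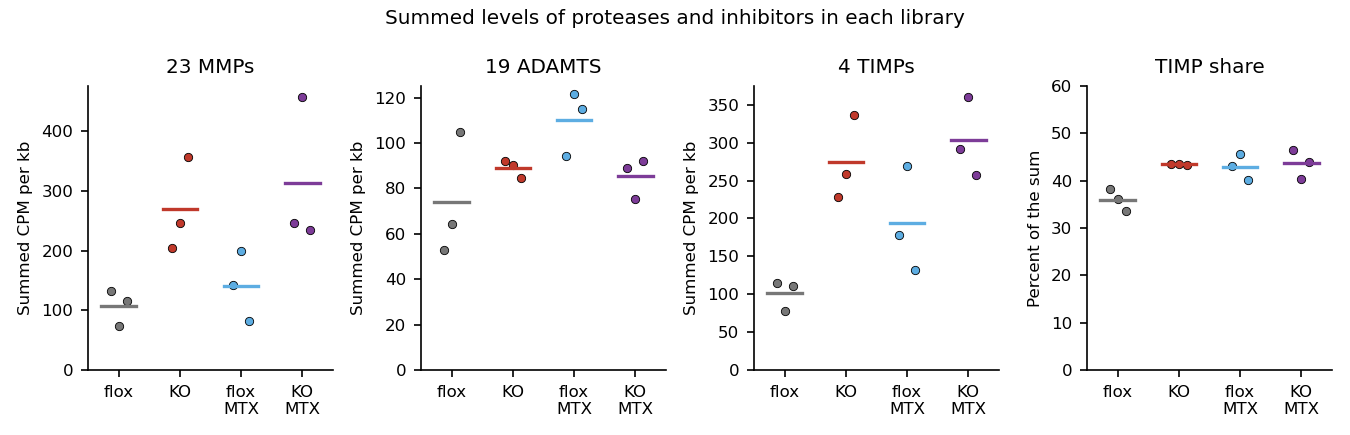
Summed level of 23 MMPs, 19 ADAMTS and 4 TIMPs in CPM per kb of exon, and the TIMP percent of the total, in each library (points) with group means (lines); flox and KO without further label are vehicle groups. The MMP and TIMP sums of the 3 KO vehicle libraries lie above those of the 3 flox vehicle libraries, and the ADAMTS sums overlap.

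Within each family the composition also differed. Timp4, an inhibitor abundant in adipose tissue and heart, made up 29.8% ± 7.55 of the TIMP sum in flox vehicle and 4.85% ± 3.14 in KO vehicle. Timp1, an inducible inhibitor, made up 4.74% ± 1.96 and 25.1% ± 13.2. The share of Timp2 was 56.7% ± 10.4 and 64.4% ± 8.82, within the spread between mice. Among MMPs, Mmp12, the macrophage elastase, held 5.97% ± 0.620 of the MMP sum in flox vehicle and 33.5% ± 12.0 in KO vehicle. Adamts5, which cuts aggrecan and versican, held 48.6% ± 7.53 of the ADAMTS sum in flox vehicle and 35.3% ± 4.90 in KO vehicle. These shares are descriptions, with no test.

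Between KO and flox mice given vehicle, 22 of the 40 members tested were called, against 31.7% of all 18702 genes tested; a call required a 1.5-fold difference and an adjusted p under 0.1. In KO mice 17 members were higher, against 13.9% of all genes, and 5 were lower, against 17.8%. Of the 28 members with at least 10 counts in every library, 16 were called higher and 3 lower in a fit of such genes alone, against 15.1% and 13.3% of them. Regardless of the calls, the groups did not overlap for 17 members higher and 6 lower in KO mice, against 22.8% and 25.3% of all genes tested. The median log2 fold change was 0.43 over the members and -0.06 over all genes. Among MMPs 10 rose and 4 fell, among ADAMTS 4 rose and 1 fell, and 3 of the 4 TIMPs rose. In the same comparison 10 of 10 macrophage markers, 7 of 9 fibroblast and stromal progenitor markers and 6 of 7 endothelial markers were called higher, while 8 of 12 tested epididymis and 9 of 10 testis markers were called lower. Most testis and several epididymis markers passed the filter on low counts through the flox vehicle libraries. A lower level of these markers elsewhere followed from the filter. Of the remaining lists, 1 of 10 adipocyte markers fell, 1 of 8 mesothelial and 1 of 5 smooth muscle markers rose, and of 5 tested neutrophil markers 1 rose and 1 fell. The neutrophil marker that fell was Ltf, at 301, 312 and 200 CPM in flox vehicle. It stood at 48.5 CPM in flox MTX replicate 1 and at most 9.59 CPM elsewhere, so its highest libraries were those of the highest epididymis sums. The part of these cell types in the members' changes was not tested, and in bulk RNA fewer cells of a type and less RNA per cell cannot be told apart. Nothing in the labels says more of the replicates than that they are separate mice.

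**Figure D2:**
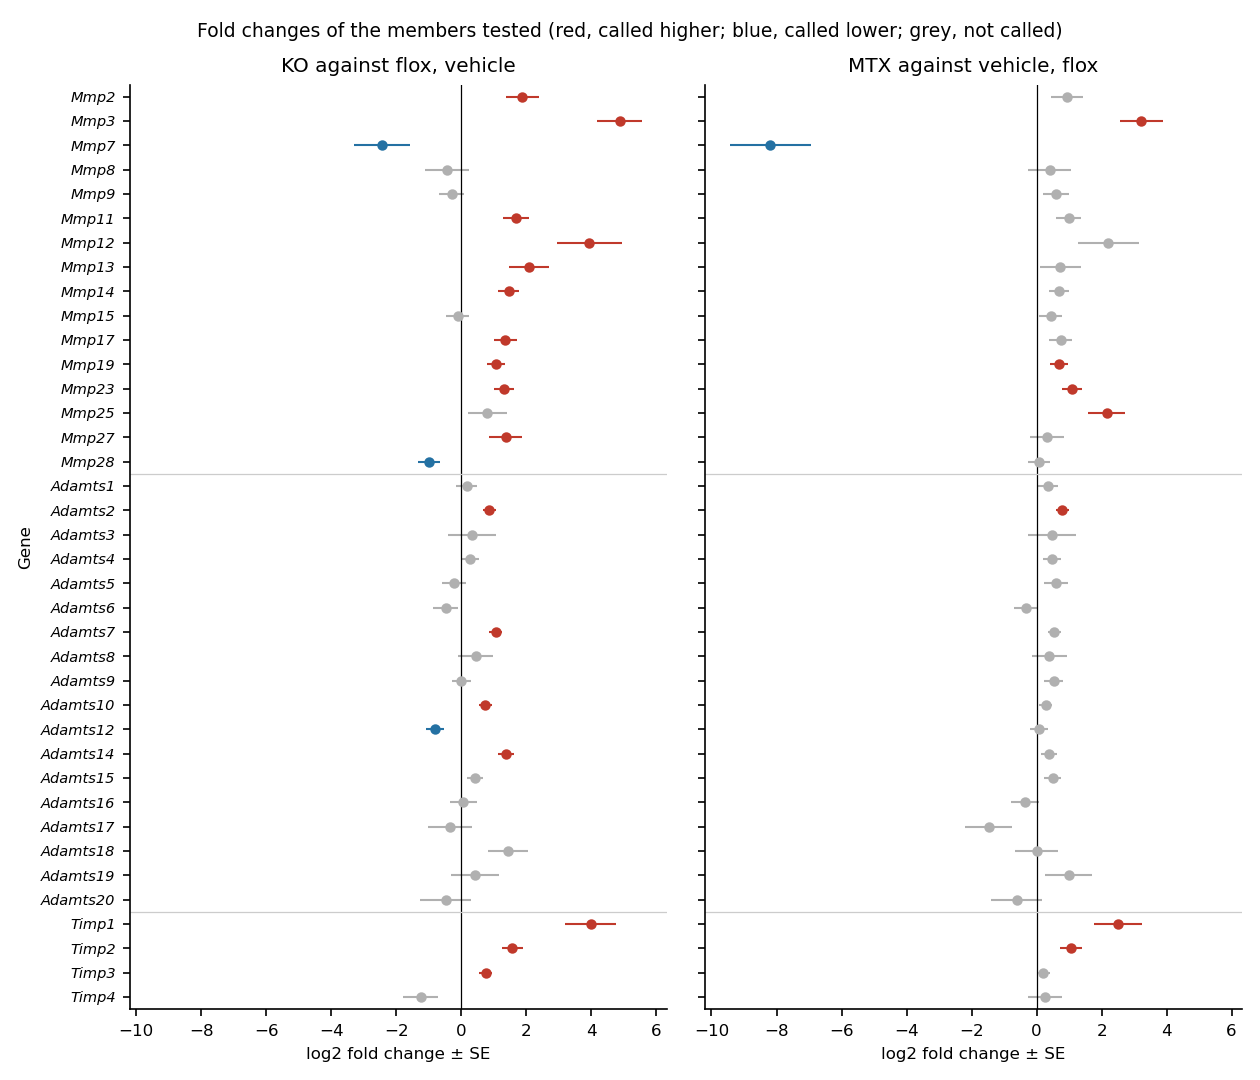
Log2 fold change (points) with its SE (bars) of 38 of the 40 members tested, for KO against flox mice on vehicle (left) and MTX against vehicle in flox mice (right); red and blue mark members called higher and lower, and Mmp1a and Mmp1b are left out because KO vehicle libraries held no counts of them. Mmp3, Timp1 and Mmp12 lie farthest to the right in KO mice, and Mmp7 lies farthest to the left in both panels.

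The gelatinase Mmp2, which digests denatured collagen and type IV collagen, stood at 73.1, 23.3 and 49.5 CPM in flox vehicle and at 145, 197 and 193 CPM in KO vehicle libraries. Every KO library was above every flox library, and the log2 fold change was 1.87 ± 0.50 (SE; adjusted p = 0.0167). The other gelatinase, Mmp9, was low, at 1.91, 1.53 and 2.95 CPM against 1.61, 1.86 and 1.69 CPM, with a log2 difference of -0.31 ± 0.40 (adjusted p = 0.600). Mmp14, the membrane-anchored collagenase that activates the Mmp2 zymogen together with Timp2, stood at 76.9, 56.4 and 56.6 CPM in flox and at 131, 192 and 199 CPM in KO mice. It rose by 1.46 ± 0.32 on the log2 scale (adjusted p = 0.00721). Mmp2, Mmp14 and Timp2, which act in this activation, were thus all called higher.

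Mmp3, or stromelysin-1, which cuts proteoglycans, fibronectin and other zymogens, was close to the floor in flox mice, at 0.911, 0.826 and 1.29 CPM, and stood at 19.6, 26.6 and 42.4 CPM in KO mice. Its log2 fold change of 4.87 ± 0.70 (adjusted p = 0.00281) was the largest rise of any member in this comparison. Mmp12 stood at 50.5, 33.8 and 52.2 CPM in flox and at 406, 456 and 1219 CPM in KO mice, a log2 fold change of 3.93 ± 1.00 (adjusted p = 0.0137). KO vehicle replicate 3 was well above the other KO libraries in Mmp12, and it also had the highest macrophage sum of its group. Mmp11, stromelysin-3 of stromal cells, rose by 1.68 ± 0.40 (adjusted p = 0.00966), with 8.94 ± 1.20 CPM in flox and 28.6 ± 5.69 CPM in KO mice (SD, n = 3).

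Of the collagenases, which cut the triple helix of fibrillar collagen, only Mmp13 rose among the 4 tested. It stood at 0.0868, 0.590 and 0.923 CPM in flox and at 1.26, 2.24 and 3.23 CPM in KO mice, a log2 fold change of 2.07 ± 0.61 (adjusted p = 0.0266). Mmp8, the neutrophil collagenase, was at most 1.14 CPM in all 6 libraries (0.590 ± 0.480 in flox, 0.439 ± 0.178 in KO) and was not called. Mmp1a and Mmp1b, a pair of rodent interstitial collagenases with similar sequences between which reads may be divided, were called lower. They passed the filter on low counts through the flox vehicle libraries alone, so that a lower level elsewhere followed from the filter. Mmp1a had 24, 39 and 12 counts in flox vehicle and 0 in the KO vehicle libraries, at least 7.47-fold lower against a floor of 3 counts per library. Mmp1b had 17, 23 and 10 counts and 0, at least 5.02-fold lower against the same floor. With a total of 78 and 54 counts over the 12 libraries these are the lowest members called in this comparison. Of the remaining counts, 3 and 2 were in flox MTX replicate 1, which also held epididymis markers. A further 2 of Mmp1b were in KO MTX replicate 3. The epididymis sum of that library was 15.9 CPM, against 2.91 and 1.92 CPM in KO MTX replicates 2 and 4. The part of those cells was not tested.

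Among the other MMPs the changes were smaller. Mmp19, a widely expressed secreted MMP, rose from 47.3 ± 14.1 to 98.5 ± 23 CPM (log2 fold change 1.06 ± 0.27, adjusted p = 0.0135). Mmp23 rose from 17.3 ± 5.43 to 42.7 ± 4.37 CPM (1.30 ± 0.30, adjusted p = 0.00881). Both showed no overlap between the groups. The membrane-anchored Mmp17 was low but rose from 1.22 ± 0.214 to 3.10 ± 0.578 CPM (1.35 ± 0.35, adjusted p = 0.0151). Mmp27 rose from 0.874 ± 0.408 to 2.25 ± 0.208 CPM (1.36 ± 0.52, adjusted p = 0.0701), a call that held in 7 of 12 fits leaving out 1 library. Mmp28, or epilysin, went the other way. It stood at 49.9, 33.3 and 48.5 CPM in flox and at 24.8, 23.6 and 17.9 CPM in KO mice, and fell by 0.99 ± 0.34 (adjusted p = 0.0504), with the call holding in 8 of 12 such fits.

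**Figure D3:**
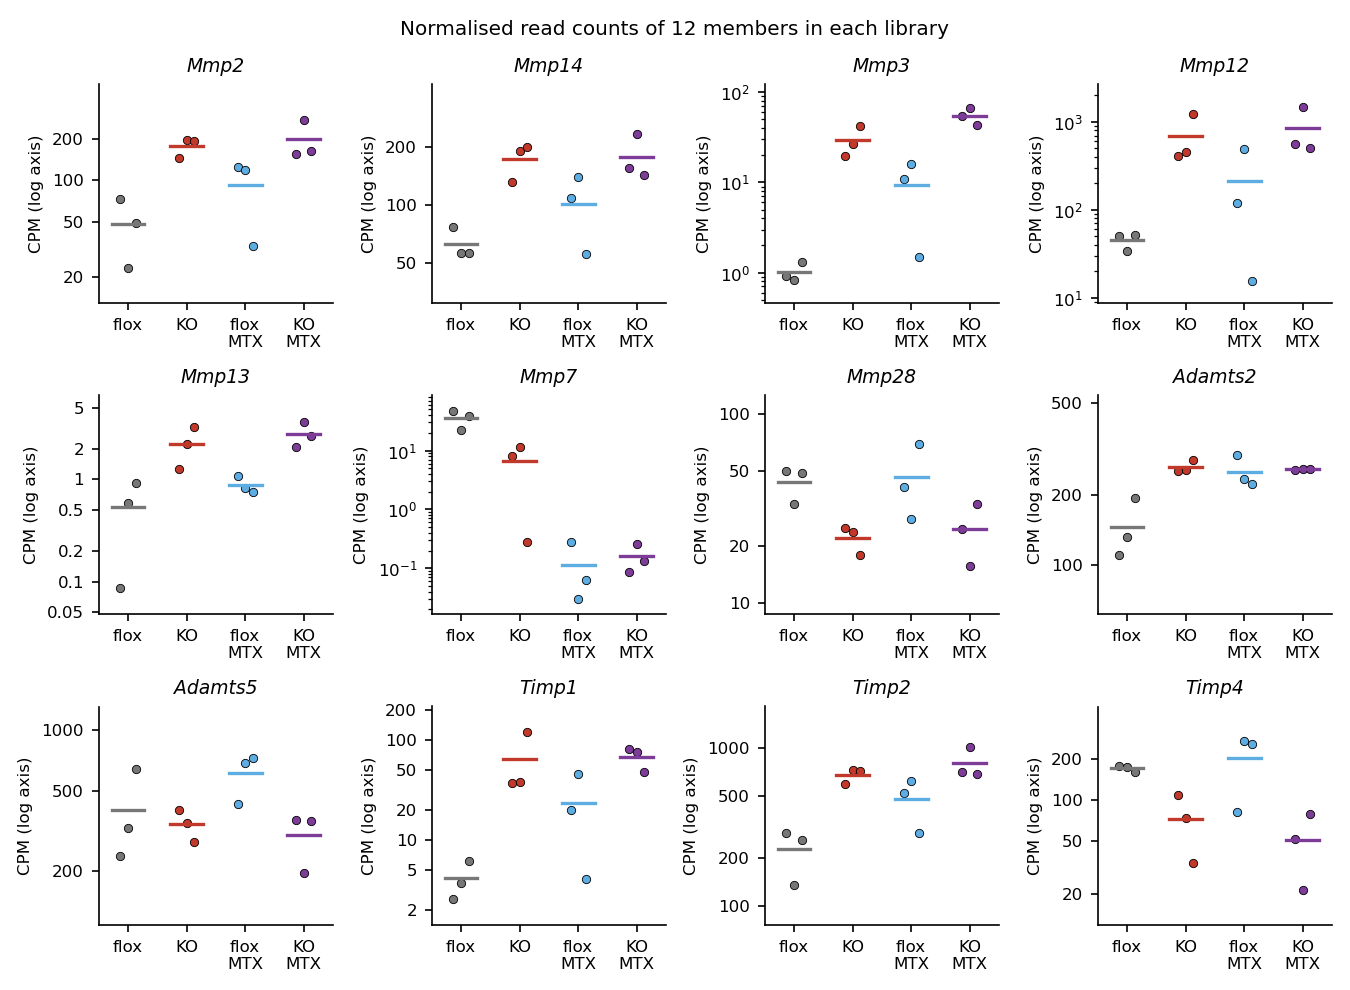
Normalised read counts (CPM, log axes that differ between panels) of 12 members in each library (points) with group means (lines); flox and KO without further label are vehicle groups and values below 0.03 CPM are drawn at 0.03. Mmp2, Mmp14, Mmp3, Mmp12, Timp1 and Timp2 are higher in all KO vehicle than in all flox vehicle libraries, and flox MTX replicate 4 lies near the flox vehicle libraries for Mmp2, Mmp3 and Timp1.

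Of the procollagen N-proteinases, which remove the amino-terminal propeptide of fibrillar procollagens, Adamts2 and Adamts14 rose. Adamts2 stood at 111, 132 and 193 CPM in flox and at 253, 255 and 283 CPM in KO mice (log2 fold change 0.86 ± 0.20, adjusted p = 0.00906). Adamts14 stood at 5.29, 4.88 and 6.0 CPM and at 10.7, 14.5 and 16.9 CPM (1.38 ± 0.25, adjusted p = 0.00390). The third, Adamts3, stood at 0.130, 0.275 and 1.89 CPM in flox and at 1.06, 0.889 and 0.937 CPM in KO mice and was not called (0.34 ± 0.74, adjusted p = 0.764). Without flox vehicle replicate 4, its highest library, it was called higher (2.21, adjusted p = 0.0104). The proteases of cartilage oligomeric matrix protein moved in opposite directions. Adamts7 rose from 6.49 ± 1.23 to 13.5 ± 2.33 CPM (1.06 ± 0.20, adjusted p = 0.00450), whereas Adamts12 fell from 9.89 ± 2.81 to 5.64 ± 0.444 CPM (-0.81 ± 0.28, adjusted p = 0.0481). Adamts10, which acts in fibrillin microfibrils, rose from 53.7 ± 8.45 to 89.5 ± 3.09 CPM (0.74 ± 0.20, adjusted p = 0.0161).

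None of the 7 proteoglycan-cleaving ADAMTS was called by edgeR in this comparison, 0 of them had an unadjusted p below 0.05, and DESeq2 called 0 of them. Adamts5 was the most abundant, with 238, 328 and 642 CPM in flox and 400, 344 and 277 CPM in KO mice, a log2 difference of -0.24 ± 0.37 (adjusted p = 0.655). Flox vehicle replicate 4 alone was above all KO libraries, and without it the difference was 0.27. Adamts1, an induced versican-cleaving protease, stood at 22.7, 30.2 and 39.4 CPM against 31.2, 40.4 and 31.5 CPM, a difference of 0.16 ± 0.32 (adjusted p = 0.745). Adamts9 (26.8 ± 4.32 and 26.6 ± 4.74 CPM) and Adamts15 (21.1 ± 5.66 and 28.2 ± 5.25 CPM) overlapped between the genotypes. Adamts4, Adamts8 and Adamts20 were low, with group means between 0.399 and 4.27 CPM. Of the remaining members, Adamts6, Adamts16, Adamts17, Adamts18 and Adamts19 had means of 0.276 to 2.94 CPM in both groups and were not called. Mmp15, at 16.7 ± 4.16 and 15.4 ± 4.26 CPM, and Mmp25, at 0.165 ± 0.115 and 0.297 ± 0.0923 CPM, were not called either.

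Among the inhibitors, Timp1 had the largest change. It stood at 2.56, 3.78 and 6.14 CPM in flox vehicle and at 37.7, 38.1 and 120 CPM in KO vehicle libraries, a log2 fold change of 3.98 ± 0.79 (adjusted p = 0.00490). KO replicate 3 was again the highest. Timp2 stood at 290, 137 and 260 CPM in flox and at 593, 727 and 718 CPM in KO mice (1.57 ± 0.33, adjusted p = 0.00622). Timp3 stood at 58.7, 70.6 and 82.2 CPM and at 129, 139 and 87.1 CPM (0.75 ± 0.20, adjusted p = 0.0179). Exons of Timp3 overlap those of Syn3 on the other strand over 1733 bases, and since a strand setting is not given in the sources used here, reads of the pair cannot be told apart there. Timp4 was the only inhibitor with a lower mean in KO mice, at 179, 176 and 160 CPM against 108, 73.5 and 34.3 CPM. Its groups did not overlap, but the difference of -1.26 ± 0.54 missed the threshold (adjusted p = 0.105). Timp4 was called lower in 6 of 7 alternative fits, among them DESeq2 (log2 fold change -1.28, adjusted p = 0.0514), and in 4 of the 12 fits leaving out 1 library, but not with library size alone (adjusted p = 0.108).

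Of the 22 calls, 18 held in all 12 fits that left out 1 library. The Mmp7 call was lost without flox vehicle replicate 1 (adjusted p = 0.140) or KO vehicle replicate 1 (adjusted p = 0.113). Those of Mmp28 (adjusted p from 0.1001 to 0.169) and Adamts12 (adjusted p from 0.115 to 0.142) were each lost without flox vehicle replicate 1 or 4 or KO vehicle replicate 2 or 3. That of Mmp27 was lost without flox vehicle replicate 3 or 4 or any 1 KO vehicle library (adjusted p from 0.117 to 0.185). Since the flox vehicle libraries differ in epididymal RNA, the fit was repeated with flox vehicle replicate 4, the lowest in those markers, as the only flox vehicle library, a choice made after the data were seen. The lone library was assumed to vary like the other groups. Then 2 of 41 members were called, against 7.07% of the genes in that fit: Mmp3 (log2 fold change 4.51, adjusted p = 0.0878) and Adamts12 (-1.13, adjusted p = 0.0989). The other calls were lost. All 21 called members that could be fitted kept their sign. This was largely fixed in advance, since the groups of all 22 called members did not overlap. Timp1 stood at 3.42, Mmp12 at 3.74, Mmp2 at 1.85, Mmp14 at 1.63 and Timp2 at 1.39.

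MTX against vehicle in flox mice asks what the drug does where the locus is intact. Here 10 of the 40 members were called, against 24.2% of all genes tested, with 7 higher (8.09% of all genes) and 3 lower (16.1%) under MTX. The 3 lower were Mmp1a, Mmp1b and Mmp7, which had almost no counts under MTX and passed the filter on low counts through vehicle libraries. Of the 7 higher, Mmp25 passed this filter through MTX libraries. Among the 28 members with at least 10 counts in every library, 5 were called higher and 0 lower, against 6.74% and 8.82% of such genes. The members' median log2 fold change was 0.47, against 0.05 over all genes, and 33 of 40 were positive. When only library size was used for scaling, the median over all genes moved by -0.20, and 5 members were called higher and 3 lower. Over all genes that scaling moved the higher share of the calls from 33.4% to 17.5%. All 10 macrophage markers were called higher here too, with 7 of 8 mesothelial markers, and 8 of 12 epididymis and all 10 testis markers lower. Again, most testis and several epididymis markers passed the filter on low counts through the flox vehicle libraries. Of 5 tested neutrophil markers 4 rose and 1, Ltf, fell, 3 of 9 fibroblast markers rose, 2 of 5 smooth muscle markers fell, and no adipocyte or endothelial marker was called. The part of these cells was not tested.

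Mmp3 stood at 10.8, 15.9 and 1.5 CPM in flox MTX, above the flox vehicle values of 0.911, 0.826 and 1.29 CPM, and its log2 fold change was 3.23 ± 0.67 (adjusted p = 0.0104). Timp1 stood at 20.1, 46.1 and 4.13 CPM under MTX and its log2 fold change was 2.5 ± 0.75 (adjusted p = 0.0396). Replicate 4, the library with few macrophage markers, lay within the range of the vehicle libraries for Timp1, so these groups overlapped. Timp2 stood at 516, 623 and 290 CPM under MTX against 290, 137 and 260 CPM (1.06 ± 0.33, adjusted p = 0.0458), with replicate 4 level with the highest vehicle library. Scaling by library size alone ended that call (0.90, adjusted p = 0.107).

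Adamts2 rose to 298, 233 and 222 CPM, all above the vehicle libraries (0.79 ± 0.20, adjusted p = 0.0213). Mmp23 rose from 17.3 ± 5.43 to 36.6 ± 14.9 CPM (1.08 ± 0.30, adjusted p = 0.0306) and Mmp19 from 47.3 ± 14.1 to 76.0 ± 14.1 CPM (0.69 ± 0.27, adjusted p = 0.0956). The Mmp19 call held in 4 of 12 fits leaving out 1 library and ended when only library size was used for scaling (adjusted p = 0.225). Mmp25, a membrane-type MMP of leukocytes, rose from 0.165 ± 0.115 to 0.760 ± 0.382 CPM (2.15 ± 0.57, adjusted p = 0.0254), with every library of both groups at or below 1.18 CPM. It had 14, 26 and 7 counts in flox MTX and 13, 18 and 20 in KO MTX libraries. Vehicle libraries held 4, 7 and 1 counts in flox and 8, 6 and 5 in KO mice. Mmp25 thus passed the filter on low counts through MTX libraries, which bears on its direction. Mmp1a and Mmp1b fell to 3 and 2 counts in all, against 75 and 50 in flox vehicle, ratios of 21.1 (95% counting interval 6.95 to 105) and 21.1 (5.54 to 179).

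Mmp12 was uneven under MTX, at 118, 497 and 15.7 CPM, and was not called (2.21 ± 0.93, adjusted p = 0.119). Single libraries moved this value in both directions. Without flox MTX replicate 4 Mmp12 was called (2.77, adjusted p = 0.0246), as were Mmp2 (1.34, adjusted p = 0.0434) and Mmp14 (0.99, adjusted p = 0.0305). Without flox MTX replicate 2 the differences were 0.57 for Mmp12 (adjusted p = 0.613), 0.72 for Mmp2 (adjusted p = 0.356) and 0.40 for Mmp14 (adjusted p = 0.383). With all libraries Mmp2 stood at 125, 120 and 33.5 CPM (0.93 ± 0.49, adjusted p = 0.203) and Mmp14 at 109, 141 and 56.1 CPM (0.69 ± 0.32, adjusted p = 0.152). Mmp9 (0.59 ± 0.39, adjusted p = 0.320), Adamts1 (0.34 ± 0.32, adjusted p = 0.489), Adamts5 (0.60 ± 0.37, adjusted p = 0.274) and Timp3 (0.21 ± 0.20, adjusted p = 0.482) were not called. Timp4 was split, at 81.0, 273 and 261 CPM against 160 to 179 CPM in vehicle libraries (0.26 ± 0.53, adjusted p = 0.766). Of the 10 calls, 5 held in all 12 fits leaving out 1 library. Without flox vehicle replicate 3 the calls of Timp1 (adjusted p = 0.139), Timp2 (adjusted p = 0.156), Mmp23 (adjusted p = 0.114), Mmp1a (adjusted p = 0.1004) and Mmp19 (adjusted p = 0.304) were lost. The Timp1 call was also lost without flox vehicle replicate 1 (adjusted p = 0.119) or flox MTX replicate 2 (adjusted p = 0.127), and the Timp2 call without flox MTX replicate 1 (adjusted p = 0.101) or 2 (adjusted p = 0.110). That of Mmp19 was lost without flox vehicle replicate 1, flox MTX replicate 1 or 4, KO vehicle replicate 1 or 2, or KO MTX replicate 2 or 4 as well (adjusted p from 0.101 to 0.304 over the 8 fits). With flox vehicle replicate 4 as the only flox vehicle library 1 of 41 members was called, Mmp7 (-8.26, adjusted p = 0.0525), against 2.9% of genes. Both this comparison and that of KO with flox on vehicle rest on the same flox vehicle libraries.

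Under MTX, edgeR called no member and no other gene between KO and flox mice (0% of genes tested); 11 members had an unadjusted p below 0.05, against 24.5% of all genes, and DESeq2 called 9, against 7.91% of the genes it tested. Without flox MTX replicate 2, the library of the highest macrophage sum in its group, 11 members were called (8 higher, 3 lower), against 20.8% of genes in that fit. Values for members singled out after they were seen were as follows. Mmp3 stood at 10.8, 15.9 and 1.5 CPM in flox MTX and at 55.0, 67.9 and 42.9 CPM in KO MTX libraries, a difference of 2.55 ± 0.60 (adjusted p = 0.104). Adamts14 stood at 6.71, 6.95 and 7.32 CPM and at 10.1, 18.5 and 12.0 CPM (0.95 ± 0.25, adjusted p = 0.104). In both genes the KO MTX libraries were above the flox MTX libraries. The groups did not overlap for 11 of the 40 members, against 26.8% of all genes tested, which is near the members' share of 27.5%.

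Mmp12 stood at 560, 1481 and 506 CPM in KO MTX, above flox MTX (2.01 ± 0.92, adjusted p = 0.207). Without flox MTX replicate 2 the difference was 3.66 (adjusted p = 0.0320), and without replicate 4 it was 1.47 (adjusted p = 0.382). Timp1 stood at 80.9, 76.4 and 47.6 CPM (1.54 ± 0.70, adjusted p = 0.207), with 2.48 (adjusted p = 0.0478) and 1.05 (adjusted p = 0.426) in the same fits. The differences were 1.10 ± 0.49 for Mmp2 (adjusted p = 0.197), 0.80 ± 0.32 for Mmp14 (adjusted p = 0.160) and 0.75 ± 0.33 for Timp2 (adjusted p = 0.189). These 5 genes are among those whose groups did not overlap. Without flox MTX replicate 4 the differences were 0.71 for Mmp2 (adjusted p = 0.452) and 0.51 for Mmp14 (adjusted p = 0.412). Timp4 was lower in KO MTX, at 51.7, 21.4 and 78.9 CPM (-2.02 ± 0.56, adjusted p = 0.107), as was Adamts5, at 358, 195 and 352 CPM against 428, 686 and 723 CPM (-1.02 ± 0.37, adjusted p = 0.139). Mmp9 (0.24 ± 0.39, adjusted p = 0.735), Timp3 (0.22 ± 0.20, adjusted p = 0.529) and Adamts1 (0.16 ± 0.32, adjusted p = 0.785) were not called.

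MTX against vehicle in KO mice gave no called member with edgeR (0% of genes tested), 6 with an unadjusted p below 0.05, against 7.97% of genes, and 1 with DESeq2, against 0.796%. Epididymis markers were low in both groups, at 10.1 to 22.9 CPM in KO vehicle and 1.92 to 15.9 CPM in KO MTX. The groups were not alike in Mmp7 and the genes detected with it, described below. KO vehicle replicates 1 and 2 held Mmp7 at 8.06 and 11.6 CPM, against at most 0.260 CPM in KO MTX. Mmp12 differed by 0.29 ± 0.89 (adjusted p = 0.965), Timp1 by 0.06 ± 0.68 (adjusted p = 0.994), Timp2 by 0.24 ± 0.33 (adjusted p = 0.894), Mmp2 by 0.16 ± 0.48 (adjusted p = 0.965) and Mmp14 by 0.03 ± 0.32 (adjusted p = 0.994). These intervals are wide, so smaller effects were not detectable. Timp3 differed by -0.32 ± 0.20 (adjusted p = 0.745), Timp4 by -0.50 ± 0.54 (adjusted p = 0.856), Adamts1 by 0.34 ± 0.32 (adjusted p = 0.837) and Adamts5 by -0.17 ± 0.37 (adjusted p = 0.943). Mmp9 stood at 1.61, 1.86 and 1.69 CPM under vehicle and at 3.26, 5.76 and 2.32 CPM under MTX, without overlap (1.13 ± 0.40, adjusted p = 0.468). The groups did not overlap for 13 of the 40 members (32.5%), against 20.7% of all genes in this comparison. Of these members 6 were higher and 7 lower under MTX, against 11.1% and 9.55% of all genes.

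The interaction of genotype and MTX asks whether the drug's effect differed between the genotypes. EdgeR called no member, against 0.989% of all genes (0.898% with a positive and 0.0909% with a negative interaction). Of the members 8 had an unadjusted p below 0.05, against 15% of all genes, and DESeq2 called 1, against 3.54%. The lowest adjusted p among members was 0.188, for Mmp23, whose level was 17.3 ± 5.43 and 36.6 ± 14.9 CPM in flox and 42.7 ± 4.37 and 36.1 ± 5.95 CPM in KO mice on vehicle and MTX (interaction -1.33 ± 0.42). Values were -2.44 ± 1.00 for Timp1 (adjusted p = 0.288), -1.92 ± 1.27 for Mmp12 (adjusted p = 0.497), -0.78 ± 0.68 for Mmp2 (adjusted p = 0.604), -0.66 ± 0.45 for Mmp14 (adjusted p = 0.505) and 0.54 ± 0.56 for Mmp9 (adjusted p = 0.659). Those of Timp2, Timp3 and Timp4 were -0.82 ± 0.46, -0.53 ± 0.28 and -0.76 ± 0.76, with adjusted p of 0.423, 0.404 and 0.651. Adamts5 had -0.78 ± 0.52 (adjusted p = 0.501), and Adamts1 had 0.00 ± 0.46. The member that DESeq2 called was Mmp23.

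Mmp7, or matrilysin, an epithelial protease, had a pattern of its own. It stood at 47.9, 22.1 and 38.1 CPM in flox vehicle, at 8.06, 11.6 and 0.281 CPM in KO vehicle and at 0.283, 0 and 0.0625 CPM in flox MTX, and at 0.0870, 0.260 and 0.131 CPM in KO MTX libraries. It was thus high in 5 libraries and at or near the limit of detection in the other 7. In flox vehicle it made up 31.0% ± 2.78 of the MMP sum per kb, against 2.73% ± 2.33 in KO vehicle and 0.0861% and 0.0462% in flox MTX and KO MTX. It was called lower in KO than flox mice on vehicle (-2.43 ± 0.86, adjusted p = 0.0542) and in MTX than vehicle in flox mice (-8.19 ± 1.25, adjusted p = 0.00434), where the flox MTX libraries held 6, 0 and 1 counts, so that the size of the fold is uncertain. Mmp7 passed the filter on low counts only with the help of the flox vehicle libraries, so that its direction partly followed from the filter.

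The epididymis sum did not follow the same libraries. KO vehicle replicates 1 and 2, with Mmp7 at 8.06 and 11.6 CPM, had epididymis sums of 22.9 and 15.2 CPM, whereas flox MTX replicate 1, with a sum of 646 CPM, had 0.283 CPM of Mmp7. Over all genes, 81 were at or above 1 CPM in those 5 libraries and below 0.5 CPM in the other 7. Among them, picked after their values were seen, were Hnf4a, a transcription factor of liver, gut and kidney epithelium, Cldn2, a pore-forming claudin, Slc7a9, an amino acid transporter of the renal and intestinal brush border, and Dnah5 and Dnah11, dyneins of motile cilia. Hnf4a stood at 11.3, 5.35 and 7.43 CPM in flox vehicle and at 3.53, 3.09 and 0.0937 CPM in KO vehicle. Cldn2 stood at 17.1, 12.0 and 18.1 CPM and at 3.98, 6.39 and 0 CPM. Both were at most 0.142 CPM under MTX. The tissue or cells that Mmp7 and these genes came from were not tested. Beyond the epididymis and testis lists, no other part of the male tract was followed.

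**Figure D4:**
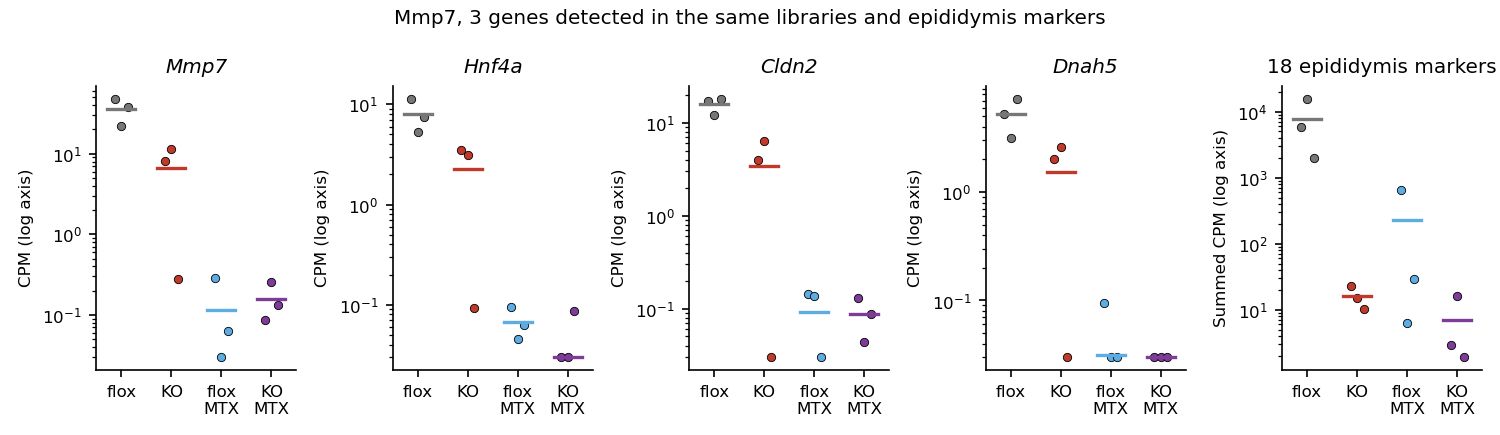
Mmp7, Hnf4a, Cldn2 and Dnah5 (CPM, log axes) and the sum of 18 epididymis markers (CPM, log axis) in each library (points) with group means (lines); flox and KO without further label are vehicle groups and values below 0.03 CPM are drawn at 0.03. The 4 genes are high in the 3 flox vehicle libraries and in 2 of 3 KO vehicle libraries, whereas the epididymis sum is high in the flox vehicle libraries and in 1 flox MTX library.

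Of the members, 10 MMPs lie side by side on chromosome 9 (chr9:7272514-7699585 of GRCm38, 427.1 kb), in the order Mmp13, Mmp12, Mmp1b, Mmp3, Mmp1a, Mmp10, Mmp8, Mmp27, Mmp20 and Mmp7. Neighbours differed in level and in direction. Mmp12, Mmp3, Mmp13 and Mmp27 were called higher in KO vehicle mice, whereas Mmp1b and Mmp1a, which flank Mmp3, and Mmp7 were called lower. Those called lower passed the filter on low counts by way of the flox vehicle libraries, which bears on their direction. Exons of Mmp12 and Mmp1b share 157 bases on opposite strands. In KO vehicle the mean was 95.9 CPM per kb for Mmp12 and 0 for its neighbour Mmp1b, and 16.4 for Mmp3.

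**Figure D5:**
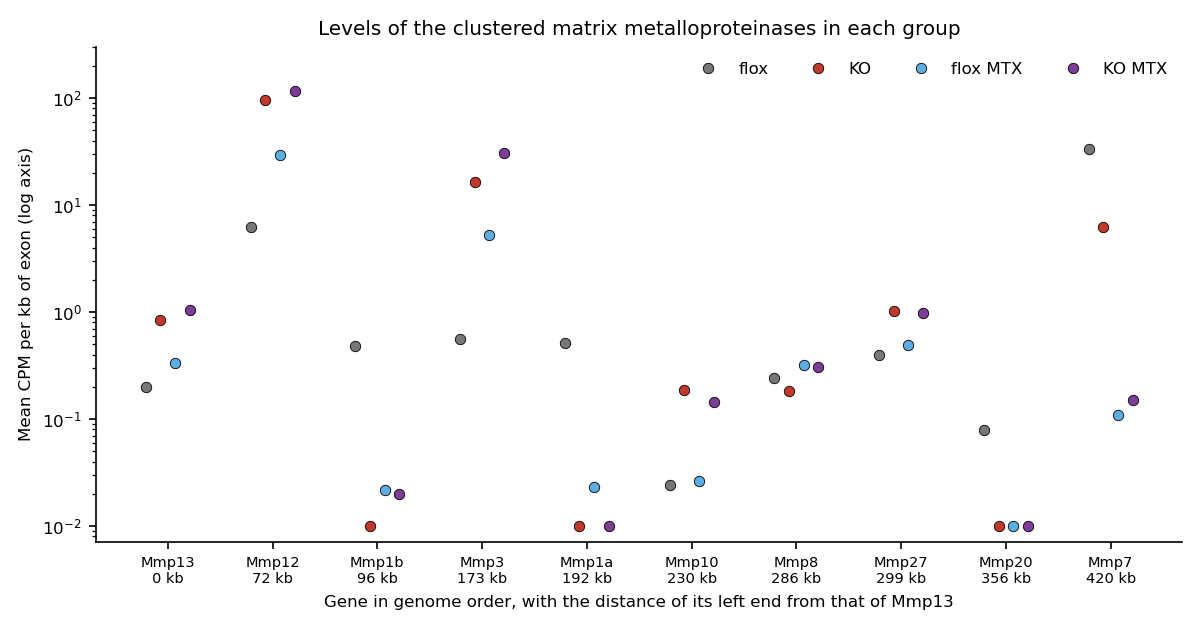
Mean level (CPM per kb of exon, log axis) of the 10 clustered MMPs in each group, in genome order with the distance in kb; flox and KO without further label are vehicle groups, and means below 0.01 are drawn at 0.01. Mmp12 and Mmp3 are lowest in flox vehicle, while Mmp7, Mmp1a and Mmp1b are highest there.

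The promoters of most of these genes hold the same short elements. RefSeq promoters (GRCm38.p6, 250 bases before to 50 after a start site) matched 32 of the 46 members. They were searched on both strands for the AP-1 element TGACTCA, the binding site of Fos and Jun dimers, and for the letters TATAAA of the TATA box. The AP-1 element occurred in the promoters of 7 of the 32 members, against 5.20% of 32851 promoters, and all 7 lie in the chromosome 9 cluster: Mmp10, Mmp12, Mmp13, Mmp1a, Mmp1b, Mmp3 and Mmp7. The TATA letters occurred in 11 of the 32, against 13.6% of promoters, and in all 7 of those. Mmp8 and Mmp20 of the cluster held the TATA letters without the AP-1 element, and Mmp27, called higher on vehicle, held neither. Of the 6 genes called on vehicle whose promoters hold both motifs, 5 are shown, with Mmp13, Mmp12 and Mmp3 called higher and Mmp1a and Mmp7 lower in KO mice. The sixth is Mmp1b, also called lower. Capitals mark the AP-1 element, read as TGAGTCA where it lies on the other strand, and the letters TATAAA. These letters lie at differing distances from the annotated start. In Mmp12 they lie after the start shown, and in the other genes shown before it. Whether they act as a TATA box was not tested. A match is a description and not a site shown to be bound.
Mmp13 (chr9:7272264-7272563, plus strand): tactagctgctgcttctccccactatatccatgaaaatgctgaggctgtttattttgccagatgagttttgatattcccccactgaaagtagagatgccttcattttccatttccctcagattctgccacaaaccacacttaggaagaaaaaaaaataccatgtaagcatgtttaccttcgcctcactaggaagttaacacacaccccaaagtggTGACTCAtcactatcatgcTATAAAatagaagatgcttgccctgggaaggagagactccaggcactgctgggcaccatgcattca
Mmp12 (chr9:7347124-7347423, plus strand, the second RefSeq start): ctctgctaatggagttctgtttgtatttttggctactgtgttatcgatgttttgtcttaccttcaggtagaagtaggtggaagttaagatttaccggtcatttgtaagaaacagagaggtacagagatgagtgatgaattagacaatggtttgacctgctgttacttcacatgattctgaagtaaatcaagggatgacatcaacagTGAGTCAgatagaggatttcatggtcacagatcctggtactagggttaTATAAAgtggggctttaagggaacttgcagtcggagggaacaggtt
Mmp3 (chr9:7445572-7445871, plus strand): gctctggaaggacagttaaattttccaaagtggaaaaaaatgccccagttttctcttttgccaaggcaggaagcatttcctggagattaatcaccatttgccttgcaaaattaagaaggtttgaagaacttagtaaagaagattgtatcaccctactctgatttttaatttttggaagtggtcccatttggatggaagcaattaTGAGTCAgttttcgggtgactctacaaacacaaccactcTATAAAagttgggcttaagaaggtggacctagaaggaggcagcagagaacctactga
Mmp1a (chr9:7463891-7464190, plus strand): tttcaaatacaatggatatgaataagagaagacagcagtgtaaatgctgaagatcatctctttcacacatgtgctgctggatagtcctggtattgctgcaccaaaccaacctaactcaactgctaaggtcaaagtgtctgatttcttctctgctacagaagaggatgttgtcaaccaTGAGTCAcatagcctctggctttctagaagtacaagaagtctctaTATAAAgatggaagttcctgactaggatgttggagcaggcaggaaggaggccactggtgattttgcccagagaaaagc
Mmp7 (chr9:7691840-7692139, plus strand, the first RefSeq start): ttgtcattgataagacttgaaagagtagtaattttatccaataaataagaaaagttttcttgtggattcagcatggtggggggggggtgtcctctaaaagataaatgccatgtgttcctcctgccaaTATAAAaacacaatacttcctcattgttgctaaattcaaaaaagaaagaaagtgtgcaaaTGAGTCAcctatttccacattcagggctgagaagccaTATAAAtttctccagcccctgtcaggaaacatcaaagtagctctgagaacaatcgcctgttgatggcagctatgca

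The mature miRNAs of the deleted locus show the sequence with which members could pair. They are given from RefSeq (GRCm38.p6) with the seed, bases 2 to 8, in capitals. Both share the seed, and the locus of Mir181a-1 and Mir181b-1 on chromosome 1, which is not the deleted one, has the same mature sequences.
miR-181a-5p (chr2:38852741-38852763, plus strand): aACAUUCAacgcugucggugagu
miR-181b-5p (chr2:38853845-38853868, plus strand): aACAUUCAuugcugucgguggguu

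The complement of the seed, TGAATGT, was searched for on the sense strand of annotated 3′ untranslated regions. It occurred in 10 of 43 members with such a region (23.3%), against 15.2% of 20372 genes, where the members' regions were longer (median 1372 against 821 bases). The 10 were Timp3, Mmp25, Adamts1 and Adamts6 with 2 matches each and Timp2, Mmp14, Mmp16, Adamts5, Adamts9 and Adamts18 with 1 each. Of these, Timp3, Timp2 and Mmp14 were called higher in KO mice on vehicle, while Adamts1, Adamts5, Adamts6, Adamts9, Adamts18 and Mmp25 were not called and Mmp16 was not tested. Over all 40 members tested, with or without a match, 17 were called higher. Whether a match bears on the level was not tested. Mmp3, Mmp12 and Timp1, the members with the largest rises, had no match. Sites of the called members and of Adamts5 are shown, with the match in capitals.
Timp3 (chr10:86348306-86348335, plus strand): acttcaattatatcgTGAATGTtttatttt
Timp3 (chr10:86349401-86349430, plus strand): gaattttatattccgTGAATGTatattgtc
Timp2 (chr11:118302242-118302271, minus strand): aagtctggtagcctgTGAATGTtccttttg
Mmp14 (chr14:54440918-54440947, plus strand): gtgttcagccctagtTGAATGTtgtcaagg
Adamts5 (chr16:85862339-85862368, minus strand): ggagacacacaatgaTGAATGTagaatcgg

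Other genes of matrix proteolysis, from a list of 46 with activators, cathepsins, ADAMs and further inhibitors, were read beside the members. On vehicle, 22 of the 42 tested were called between KO and flox mice, 19 higher and 3 lower, with a median of 0.69, against 13.9% and 17.8% of all genes and a median of -0.06. Adam8, a leukocyte sheddase, rose by 4.07 ± 0.84 (adjusted p = 0.00569), and the cathepsins Ctss (3.16 ± 0.60, adjusted p = 0.00450) and Ctsk (3.13 ± 0.57, adjusted p = 0.00413) rose as well. Plaur, the urokinase receptor, rose by 2.45 ± 0.31 (adjusted p = 0.00276). Reck, a membrane-anchored inhibitor of MMPs, differed by 0.55 ± 0.20 and missed the fold limit (adjusted p = 0.0635). Mep1a, a meprin of kidney and gut brush border, was lower, with 15.3, 18.6 and 5.68 CPM in flox and at most 0.169 CPM in KO vehicle libraries. It passed the filter on low counts through the flox vehicle libraries, so a lower level elsewhere followed from the filter. Under MTX in flox mice 13 of the 42 were called, 12 higher and 1 lower, against 8.09% and 16.1% of all genes. The 1 lower was Mep1a (-4.17 ± 1.08, adjusted p = 0.0235). The largest rises were 2.05 ± 0.58 for Ctss (adjusted p = 0.0321), 1.99 ± 0.77 for Adam8 (adjusted p = 0.0934) and 1.74 ± 0.67 for Thbs2 (adjusted p = 0.0910). Thbs2 stood at 49.1, 238 and 27.6 CPM in flox MTX. Plaur rose by 1.23 ± 0.30 (adjusted p = 0.0195).

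Of 29 tested substrates of these enzymes, 16 were called between KO and flox mice on vehicle, 13 higher and 3 lower, with a median of 0.76, beside the same shares of all genes. Lum, the collagen-binding proteoglycan lumican, stood at 33.4, 31.4 and 72.2 CPM in flox and at 245, 235 and 306 CPM in KO mice (2.52 ± 0.41, adjusted p = 0.00323). The 3 that fell were Lama1, the laminin chain of early and epithelial basement membranes, with 19.3, 47.0 and 7.80 CPM in flox and at most 0.762 CPM in KO mice, and the cartilage genes Acan and Col2a1, both at most 2.75 CPM in every library. Flox vehicle replicate 3, with the highest epididymis sum, was the highest library for all 3. Acan and Col2a1 passed the filter on low counts through the flox vehicle libraries, so their lower level in the other groups followed from the filter. Under MTX in flox mice 12 of the 29 were called, 9 higher and the same 3 lower, where 24.2% of all genes were called. Fmod had the largest rise there (1.73 ± 0.34, adjusted p = 0.00861). No gene of either list was called between KO and flox mice under MTX, where 13 and 8 had an unadjusted p below 0.05, against 24.5% of all genes.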

How the data were processed

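RNA of eWAT from 12 mice was sequenced (4 groups of 3, 1 library per mouse). The authors trimmed reads with Trimmomatic 0.36, aligned them to the mouse genome (GRCm38) with STAR 2.5.2b and counted them with featureCounts of Subread 1.5.2, per the labels. The methods describe ribosomal RNA depletion and the labels polyA RNA, and which applies is not known. The deposited values are whole read counts per gene, not normalized. Tests used edgeR 4.0.16 under R 4.3.3, with TMM factors, filterByExpr by group (18702 genes), 1 coefficient per group over 12 libraries and the two-sided quasi-likelihood F-test, Benjamini-Hochberg adjusted over all genes tested. Calls needed a 1.5-fold difference and an adjusted p under 0.1, one reading of the limit in the study's methods. Levels between genes were divided by the union exon length (GENCODE M21). The members and lists were chosen with earlier results of these data known. Every member is named, and fold changes are given for called members and for Mmp2, Mmp9, Mmp12, Mmp14, Timp1 to Timp4, Adamts1 and Adamts5. From the other lists, the 4 called genes of largest change and Reck and Plaur are given, some by their levels only. One other gene of this rule is not reported here. Markers of 9 cell types were summed in CPM.

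Alternatives were RLE factors, library size only, no filter, at least 10 counts in every library, DESeq2 1.42.0, a block by replicate number, the libraries of the compared groups alone, another fold limit and each library left out. The procedure was tested on simulated counts. The labels do not say that replicate numbers pair the mice. Same-number residual correlations over 12 pairs had a median of 0.0353 (range -0.273 to 0.254), against 0.0112 in 42 other pairs. These values show no clear pairing but cannot exclude it. No libraries of a group were duplicates (the lowest chi-square per degree of freedom over 12 pairs was 12.85). Depth was 19495310 to 23976469 counts per library.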

Additional observations from a re-analysis of the deposited data

How the results depend on the processing

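Counts of members called depended on the processing as follows. For KO against flox on vehicle, 22 became 10 with the fold limit read as 1.5 in log2 units and 2 without flox vehicle replicates 1 and 3 (chosen after seeing the data), and ranged from 19 to 24 with each library left out. For MTX against vehicle in flox, 10 became 6 with that limit, 5 when each library had to hold 10 counts, 4 with the libraries of both groups alone and 1 without flox vehicle replicates 1 and 3, with a range of 5 (without flox vehicle replicate 3) to 15 (without flox MTX replicate 4). For KO against flox under MTX, 0 became 9 with DESeq2, 3 with no filter and 3 with the filter of 10 counts, with a range of 0 to 11; 11 were called without flox MTX replicate 2 and 4 without flox vehicle replicate 3. For MTX in KO mice, 0 became 1, Mmp7, with no filter and with DESeq2 (range 0 to 1, the call being gained without KO vehicle replicate 3). For the interaction, 0 became 1, Mmp23, with DESeq2 (range 0 to 2; 1 without flox MTX replicate 4 and 2 without flox vehicle replicate 4). The cause was not tested.

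The replicate number as a block gave 21, 0, 4, 0 and 0 calls for KO against flox on vehicle, KO against flox under MTX, MTX in flox, MTX in KO and the interaction. The labels do not say that the numbers pair the mice, and the residual correlations cannot exclude it. What the lost calls mean was not tested. With each library left out, the summed level lay between 258 and 315 CPM per kb in flox vehicle, 560 and 687 in KO vehicle, 372 and 503 in flox MTX and 606 and 760 in KO MTX, and the TIMP share between 34.8% and 37.2%, 43.4% and 43.5%, 41.6% and 44.3%, and 42.2% and 45.2%. Without division by length the shares were 31.6%, 30.9%, 31.5% and 30.9%.

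No called fold change reversed, which was largely fixed in advance where the compared groups did not overlap. The following uncalled ones changed sign. With each library left out, KO against flox on vehicle ranged from -0.50 to 0.0092 for Mmp9, -0.015 to 0.39 for Adamts1 and -0.51 to 0.27 for Adamts5 (log2). Under MTX it ranged from -0.20 to 0.56 for Mmp9 and -0.071 to 0.64 for Adamts1. MTX in flox ranged from -0.13 to 0.59 for Adamts1. MTX in KO ranged from -0.22 to 0.85 for Timp1, -0.15 to 0.30 for Mmp2, -0.22 to 0.16 for Mmp14, -0.38 to 0.98 for Mmp12 and -0.32 to 0.062 for Adamts5, and the interaction from -0.25 to 0.47 for Adamts1, which was -0.025 with no filter. Without flox vehicle replicates 1 and 3, Adamts1 stood at -0.19 for KO against flox on vehicle, and MTX in flox gave -0.0041 for Timp3, -0.016 for Adamts1 and -0.063 for Adamts5. With the replicate block, Timp4 stood at -0.28 for MTX in flox.

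With groups of 3 mice, members under about 1 CPM rest on few counts, and changes in them below several-fold were not detectable. The flox vehicle group carries epididymal and testicular RNA and enters both comparisons with calls. The strand setting is not given in the sources used here, which touches Timp3, Mmp19 and other members with antisense neighbours.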
